A study of Homo sapiens with 8 samples.

Results

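The CC chemokines described here were 8 genes, CCL2, CCL5, CCL7, CCL8, CCL11, CCL13, CCL20 and CCL26, picked by symbol from the 27696 gene rows of a count table. CC chemokines are small secreted proteins with a pair of adjacent cysteines near the amino terminus, and they act on G protein-coupled receptors of the CCR family. CCL2, CCL7, CCL8 and CCL13 are the monocyte chemoattractant proteins and signal mainly through CCR2 and, for several of them, CCR1 and CCR3. CCL11 and CCL26 are eotaxins that attract eosinophils through CCR3, CCL5 (RANTES) attracts T cells and monocytes, and CCL20 is the ligand of CCR6. Senescent fibroblasts are known to secrete CCL2 and other chemokines as part of the senescence-associated secretory phenotype (SASP).

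The RNA came from IMR90 cells, a line of primary human lung fibroblasts from an embryo, that had been kept for 3 days in medium conditioned by other fibroblasts. The donors of the medium were IMR90 ER:RAS cells, in which RAS is fused to an oestrogen receptor domain and is switched on by 4-hydroxytamoxifen (4-OHT), so that the cells enter oncogene-induced senescence. The groups were D0, D4, D7 and D10, the day of induction at which medium was taken, and each had 2 libraries from independent experiments (replicates 1 and 2, called experiments 1 and 2). The labels name no transgene in the recipient cells, any 4-OHT carried over in the medium was not measured here, and the readout was RNA, not secreted protein. Totals ran from 11708193 to 13395912 counts a library.

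Fibroblast markers checked the label, and all 8 were tested. They summed to between 28774 and 43246 CPM (counts scaled to a common library size) in 7 libraries and to 9406 CPM in D10 replicate 2. Within experiment 2, their log2 changes at D10 against D0 (2 counts added) were -2.75 for COL1A1, -2.65 for DCN, -1.97 for COL1A2 and -1.87 for PDGFRB. They were -0.61 for THY1, -0.55 for VIM, -0.17 for PDGFRA and -0.12 for FAP. Within experiment 1 they were -1.03 for PDGFRB, -1.02 for DCN, -0.62 for COL1A1, -0.38 for THY1 and -0.25 for COL1A2. VIM gave -0.20, PDGFRA 0.01 and FAP 0.66 there. In an edgeR fit with a term for experiment (the replicate block), 2 of the 8 were called lower at D10 (adjusted p under 0.05). Without the block 0 were called, and with it 338 of the 13798 tested genes were lower. The paper reports a fall of collagen genes in fibroblasts given senescent medium, and whether the low sum is part of it was not tested. The 7 leukocyte markers analysed, of 10 listed, summed to 1.67 to 4.11 CPM across the 8 libraries. Endothelial markers (5 of 5) summed to 42.5 to 122 CPM and epithelial markers (6 of 6) to 45.9 to 94.8 CPM. The endothelial sum was mostly TEK, with a D0 mean of 82.8 CPM. VWF had 1.81 CPM at D0, CDH5 0.168, PECAM1 0.126 and KDR 0. The epithelial sum was mostly KRT18 and KRT8, with D0 means of 45.1 and 21.96 CPM. KRT19 had 0.646 CPM at D0, EPCAM 0.391, CDH1 0.0419 and SFTPC 0. The part of the low fibroblast sum of D10 replicate 2 in the results below was not tested, so values are also given for each experiment. In bulk RNA, more cells expressing a gene and more RNA per cell cannot be told apart.

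CCL2, CCL7, CCL11, CCL8 and CCL13 lie in this order on the plus strand of 1 cluster on chromosome 17 (GRCh38, GENCODE 29). CCL2 spans chr17:34255218-34257203, and the starts of the other 4 lie 15.003, 30.45, 63.818 and 101.234 kb from its start. CCL5 lies on the minus strand at chr17:35871491-35880793, CCL20 on the plus strand at chr2:227805739-227817564, and CCL26 on the minus strand at chr7:75769533-75789896. None shared exon bases with another gene on either strand. CCL5 was the exception for sequence, since 13.9% of its 50-base words also occur in transcripts of other genes, whereas the other 7 members shared 0.0%.

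RefSeq promoter sequences (GRCh38.p14) were held for 5 members, CCL7, CCL8, CCL13, CCL20 and CCL26. The 100 bases before the start site are shown for CCL7 and CCL20, which were the members with the highest fitted change, and for CCL13, a cluster neighbour of CCL7 whose experiments differed. RefSeq start sites can differ from the GENCODE starts above, and that of CCL20, chr2:227813842, lies inside its gene span. In GENCODE 29 exons lie 20 bases of the CCL20 window, 28 of the CCL13 window and all 100 of those of CCL8 and CCL26. Capitals mark matches, on either strand, to TATAAA, to an NF-κB-like pattern (GGG, any 5 bases, then CC) and to the AP-1-like pattern TGANTCA.
CCL7, chr17:34270121-34270220, plus strand: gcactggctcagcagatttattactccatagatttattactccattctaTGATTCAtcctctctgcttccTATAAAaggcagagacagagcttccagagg
CCL13, chr17:34356380-34356479, plus strand: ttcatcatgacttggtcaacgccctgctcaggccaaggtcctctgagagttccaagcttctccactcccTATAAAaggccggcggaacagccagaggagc
CCL20, chr2:227813742-227813841, plus strand: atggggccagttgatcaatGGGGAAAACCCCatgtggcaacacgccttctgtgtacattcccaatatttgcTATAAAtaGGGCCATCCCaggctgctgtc

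Over the 250 bases before the start site, TATAAA was found in CCL7, CCL8, CCL13 and CCL20, 4 of the 5 members with a sequence, and in 10.7% of all 35116 promoters. It began 30 bases before the start site in CCL7 and CCL8, 31 in CCL13 and 29 in CCL20. Only CCL20 among the 5 held the NF-κB-like pattern, which 54.4% of all promoters hold, and its matches beginning 81, 80 and 79 bases before the start overlap one another. TGANTCA was found in CCL7 and in 6.57% of promoters, the C/EBP-like TTGCNNAA in CCL26 and in 9.05%, and a STAT6-like pattern (TTC and GAA with 4 bases between) in none of the 5 and in 5.38%. The longest run common to the 100-base windows of CCL7, CCL8 and CCL13 was CCTATAAAAGGC, chosen after the sequences were seen. It is held by 4 of the 35116 promoters, which include those of CCL7, CCL8 and CCL13 themselves. These matches describe letters only, and binding was not measured.

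Levels are given as CPM on library sizes scaled by the trimmed mean of M values (TMM). CCL2 made up nearly all CC chemokine RNA in every library, from 97.7% of the counts of the CC ligands analysed in D10 replicate 2 to 99.6% in D7 replicate 2 (Wilson 95% intervals 97.5% to 97.9% and 99.4% to 99.7%, counting error only). Per kilobase of exon, CCL2 stood at 171 ± 24.4 CPM per kb at D0 (SD, n = 2), and CCL13 came next at 0.926 ± 0.222. CCL26 followed at 0.519 ± 0.442 CPM per kb, CCL7 at 0.181 ± 0.0180, CCL5 at 0.131 ± 0.0495, CCL11 at 0.0726 ± 0.00721 and CCL20 at 0.0719 ± 0.0274, with CCL8 at 0 counts. At D10 the order was CCL2 (691 ± 269 CPM per kb), CCL7 (20.8 ± 20.1), CCL20 (3.17 ± 3.01), CCL13 (2.14 ± 2.11), CCL11 (0.548 ± 0.775), CCL26 (0.224 ± 0.159), CCL8 (0.0627 ± 0.000165) and CCL5 (0.0262 ± 0.0370). CCL2 stood clear of the rest beyond the spread, while from CCL7 to CCL11 neighbouring means lay within 1 SD of each other, taking the higher SD. That SD ignores the pairing by experiment. CCL7 was above CCL20 in experiment 1 (6.51 against 1.04 CPM per kb) and in experiment 2 (35.0 against 5.29). CCL13 was above CCL20 in experiment 1 (3.63) and below it in experiment 2 (0.649). The exon length joins all annotated transcripts and for CCL2 covers the whole gene (1986 bases), so its level per kb is a low estimate. The length for CCL20 (1594 bases) came from another version of its gene record than the counts. Its place in the order per kb is therefore less certain.

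**Figure D1:**
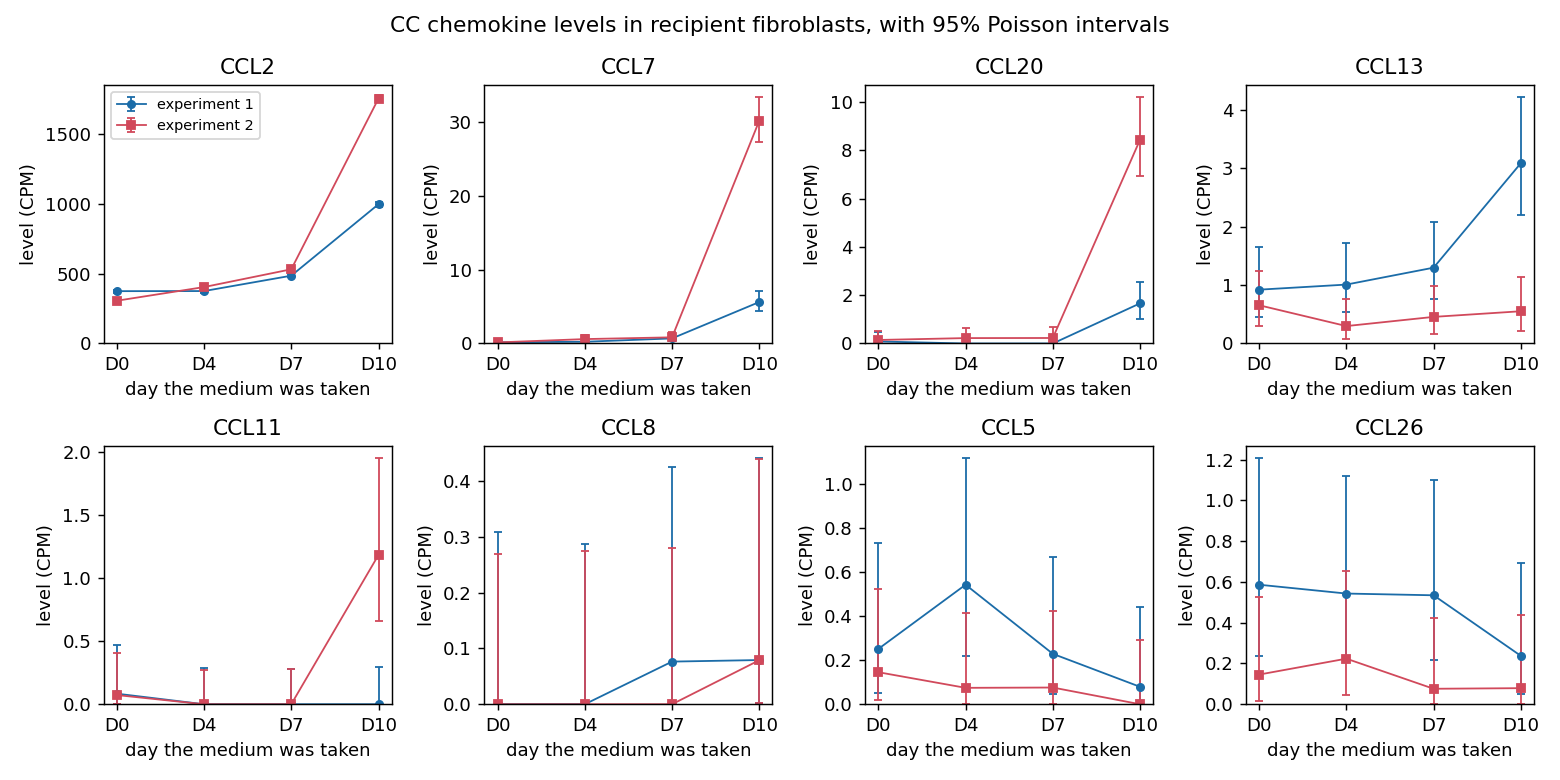
Level in CPM (linear axes from 0, a separate scale for each gene) of the 8 members by the day the medium was taken. Circles are experiment 1, squares experiment 2, and bars are exact Poisson 95% intervals; CCL2, CCL7 and CCL20 were highest at D10 in both experiments, whereas CCL13 was highest at D10 in experiment 1 only and CCL11 passed 3 counts only in D10 replicate 2.

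Of the monocyte chemoattractants, CCL2, the principal ligand of CCR2, was measured in experiment 1 at 374, 375, 485 and 996 CPM for D0, D4, D7 and D10. In experiment 2 it was measured at 306, 403, 530 and 1751 CPM. Both D10 values were above all 6 others, and both D7 values were above all values of D0 and D4. Among the 13798 genes tested, CCL2 ranked 455 and 491 by counts at D0 and 116 and 39 at D10. The fitted log2 fold change against D0 was 0.20 ± 0.31 (SE) at D4, 0.58 ± 0.31 at D7 and 2.01 ± 0.33 at D10. Within experiment 1 the change at D7 was 26.4% of that at D10 on the log2 scale, and within experiment 2 it was 31.6%.

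CCL7, encoded next to CCL2 and a ligand of CCR1, CCR2 and CCR3, was close to the detection floor at D0, with 2 counts in each library. Counts were then 3 (D4), 9 (D7) and 71 (D10) in experiment 1 and 8, 11 and 383 in experiment 2, and the D10 counts correspond to 5.62 and 30.2 CPM. The D7 libraries were both above the D4 libraries, and the D10 libraries were above all others. The 95% counting intervals of D4 replicate 2 (0.258 to 1.18 CPM) and D7 replicate 1 (0.314 to 1.30 CPM) overlapped, however. The count ratio of D10 to D0 was 33.5 in experiment 1 (exact 95% counting interval 8.95 to 282) and 208 in experiment 2 (57.1 to 1720). As a share of all CC ligand counts, CCL7 went from 0.0445% at D0 to 0.141% at D7 and 0.558% at D10 in experiment 1, and from 0.0474% to 0.157% and 1.69% in experiment 2. The fitted log2 fold change against D0 was 1.36 ± 1.22 at D4, 2.22 ± 1.13 at D7 and 6.76 ± 1.00 at D10.

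CCL20, the CCR6 ligand that attracts dendritic cells and Th17 cells, stayed at or under 3 counts in all 6 libraries of D0, D4 and D7 and reached 21 and 107 counts at D10. Its level at D10 was thus 1.66 and 8.44 CPM. The count ratio of D10 to D0 was 19.8 (3.19 to 821) in experiment 1 and 58.0 (15.7 to 485) in experiment 2, each with 1 or 2 counts at D0. Fitted log2 fold changes were -0.03 ± 1.76 at D4, -0.03 ± 1.75 at D7 and 5.33 ± 1.24 at D10, so that an early change, if any, was not detectable at this depth.

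CCL13 (MCP-4), the last of the members in the cluster, was higher at D10 in experiment 1 only. It passed the test in no fit. In experiment 1 it had 11, 13, 17 and 39 counts at D0, D4, D7 and D10, and in experiment 2 it had 9, 4, 6 and 7. D10 replicate 1, at 3.09 CPM, was above every other library, while D10 replicate 2, at 0.552 CPM, lay below both D0 libraries (0.922 and 0.655 CPM). The count ratio of D10 to D0 was 3.35 (1.68 to 7.25) in experiment 1 and 0.843 (0.267 to 2.54) in experiment 2, so the lower count of experiment 2 was within counting error. The fitted log2 fold change at D10 was 1.20 ± 0.90 (edgeR adjusted p = 0.998), and it was -0.48 without D10 replicate 1.

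With the design that gives replicates no block, none of the 4 tested members passed an adjusted p of 0.05 (edgeR quasi-likelihood test, Benjamini-Hochberg over all genes) at D10, where 0.196% of the 13798 genes were called higher. The adjusted p was 0.0504 for CCL7, 0.0604 for CCL2 and 0.143 for CCL20, and all 3 had an unadjusted p under 0.05. The libraries pair by experiment, and with the replicate block CCL7, CCL20 and CCL2 rose at D10, with adjusted p of 0.00102, 0.00271 and 0.00439 (the block called 2.54% of all genes higher). CCL20 had 10 or more counts only in the D10 libraries, and CCL7 only there and in D7 replicate 2, so both entered the test through the group in which they were high, and their number among the tested members is no support beside that share. CCL13 did not pass with the block (adjusted p = 0.361). DESeq2 without a block called the same 3 genes, where 1.58% of genes were called higher. Over all alternatives the adjusted p ran from 9.26e-09 to 0.323 for CCL7, from 1.37e-07 to 0.457 for CCL2 and from 0.000528 to 0.627 for CCL20, and the fitted change stayed positive in each of them.

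**Figure D2:**
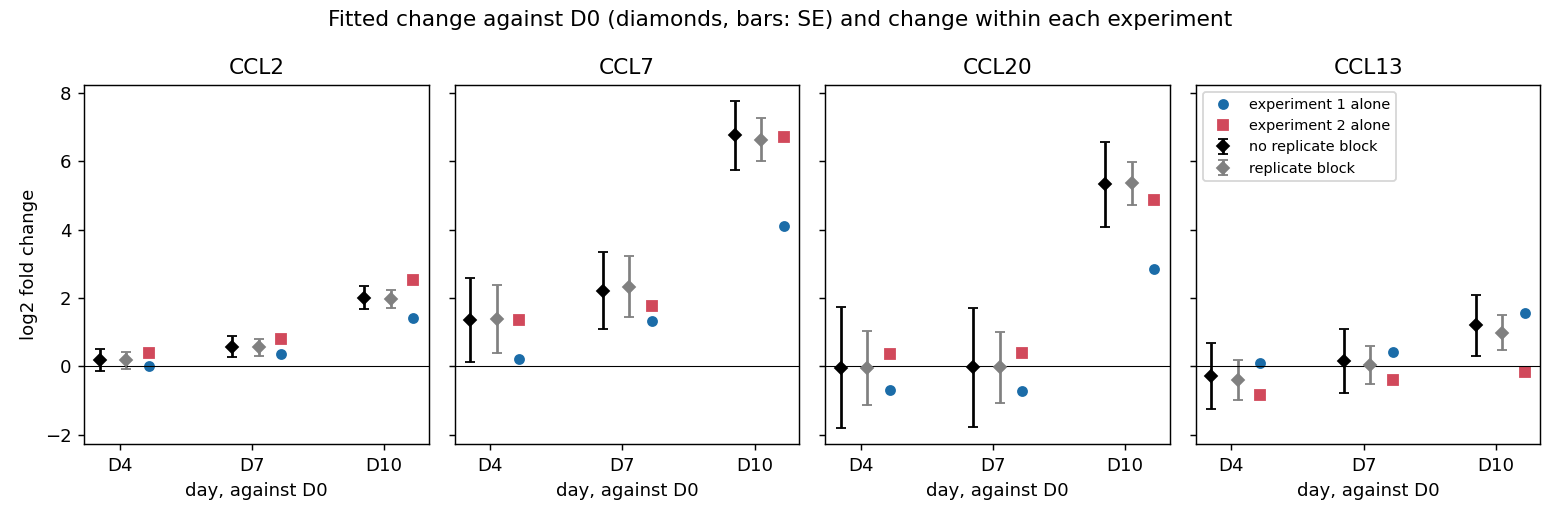
Log2 fold change against D0 of the 4 tested members at D4, D7 and D10. Black diamonds are the edgeR fit without and grey diamonds with the replicate block (bars, SE), circles and squares the change within experiments 1 and 2 after adding 2 counts; at D10 both experiments lay above 0 for CCL2, CCL7 and CCL20 and on either side of 0 for CCL13.

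Media of D4 and D7 gave no call for any tested member against D0, with or without the block. edgeR without the block called 0.0% of genes on both days (409 and 599 genes had an unadjusted p under 0.05), the replicate block called 0.275% and 1.25%, and DESeq2 called 48 and 117 genes. The lowest adjusted p of a member with the block was 0.367, for CCL7 at D7. These days share their D0 libraries with D10.

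Directly against D7, D10 gave log2 fold changes of 4.54 ± 0.83 for CCL7, 5.35 ± 1.24 for CCL20, 1.44 ± 0.32 for CCL2 and 1.05 ± 0.89 for CCL13. For CCL7 the count ratio was 8.18 (4.07 to 18.6) in experiment 1 and 36.2 (19.98 to 73.1) in experiment 2, and the fit gave 2.87 when D10 replicate 2 was left out and 5.31 when D10 replicate 1 was. CCL20 had 0 counts at D7 in experiment 1 and a ratio of 37.0 (12.3 to 182) in experiment 2, and its fitted change was 3.76 without D10 replicate 2 and 9.03 without D7 replicate 2, which leaves D7 with 0 counts. edgeR without the block called 0.0% of genes here and no member (489 genes had an unadjusted p under 0.05), and DESeq2 called 66 genes, CCL2, CCL7 and CCL20 among them. With the replicate block 0.304% of genes were called higher. CCL7 and CCL20 were among them (edgeR adjusted p = 0.0130 and 0.0132, against 0.595 and 0.775 without the block). CCL2 did not pass with the block (adjusted p = 0.0793). CCL7 and CCL20 entered the test through their D10 counts, so their calls are no support beside the 0.304%.

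The other 4 members were too low to judge, as they failed the filter on low counts. CCL11 (eotaxin) had 1 count in each D0 library, 0 at D4 and D7, 0 in D10 replicate 1 and 15 in D10 replicate 2, a ratio to D0 in experiment 2 of 16.3 (2.5 to 684) that had no counterpart in experiment 1. CCL8 (MCP-2) had at most 1 count in any library and 0 in 5 of the 8, at or under the floor of 3 counts (0.218 to 0.251 CPM) in every group. CCL5 had 3, 7, 3 and 1 counts in experiment 1 and 2, 1, 1 and 0 in experiment 2 from D0 to D10. CCL26 (eotaxin-3) had 7, 7, 7 and 3 counts in experiment 1 and 2, 3, 1 and 1 in experiment 2, and its pooled ratio of D10 to D0 was 0.451 (0.101 to 1.62). Differences for CCL5, CCL8 and CCL26 were not detectable at this depth.

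**Figure D3:**
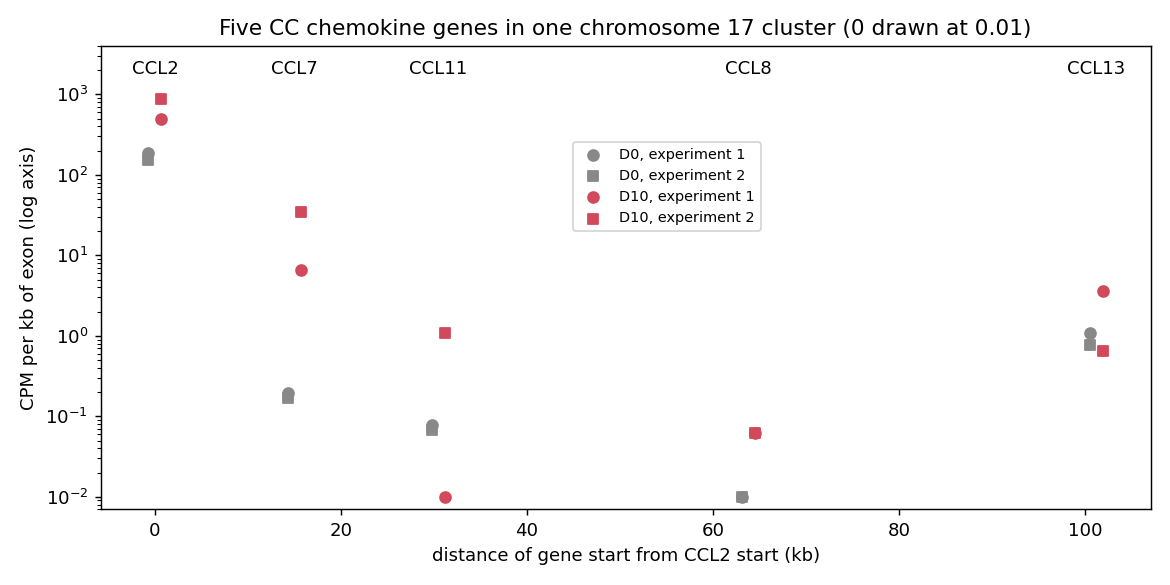
Level per kb of exon (log axis, 0 drawn at 0.01) of the 5 members in the chromosome 17 cluster against the distance of their start from that of CCL2, at D0 (grey) and D10 (red), circles for experiment 1 and squares for experiment 2. CCL2 and CCL7 were higher at D10 in both experiments, CCL11 and CCL13 in 1 experiment each, and CCL8 stayed at or under 1 count.

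Further CC ligands added little: of 20 others listed, 10 were analysed, and none passed 3 counts in a library. Of the 10 CC receptors listed, 5 were analysed, and CCR1 and CCR10 reached 10 counts in a library. CCR1, which binds CCL5 and CCL7, had 6 to 17 counts and a log2 fold change at D10 of 0.14 ± 0.59. CCR10 had 15 to 35 counts and a change of -0.05 ± 0.48. CCR2, the CCL2 receptor, had 1 count in each D0 library and 0 in the other 6. Of the atypical receptors, which bind chemokines without G protein signalling, ACKR3 had 66 to 306 counts and a change of -1.02 ± 0.55 that was -1.45 within experiment 1 and -0.06 within experiment 2, the 306 counts being those of D0 replicate 1, while ACKR4 (0.49 ± 1.11) and CCRL2 (0.00 ± 0.61) were lower in counts, and none of these receptors was called in any comparison with or without the block.

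Among the other chemokine and cytokine-response genes listed, CXCL1, CXCL10 and NFKBIA rose at D10 without the block. CXCL1, a neutrophil attractant, had 3 and 2 counts in the D0 libraries and 365 and 1145 in those of D10 (adjusted p = 0.0181). CXCL10, an interferon-induced T cell attractant, went from 21 and 19 to 569 and 348 counts (adjusted p = 0.0181), and unlike CCL2 and CCL7 was higher in experiment 1 than in experiment 2 at D10. NFKBIA, the inhibitor and target of NF-κB, went from 380 and 399 to 1360 and 1305 counts (adjusted p = 0.0225). With the replicate block at D10, 5 of 5 tested neutrophil-attracting CXC ligands and 1 of 3 tested other CXC ligands rose. Of 12 genes of inducing pathways, 6 rose and 1 fell. The block called 2.54% of all genes higher and 338 of the 13798 lower. At D7 against D0 the block called 1 of 3 other CXC ligands and 1 of 12 inducing-pathway genes higher, with 70 of all 13798 genes. At D4 against D0 DESeq2 called 1 of the 12 lower, with 26 of 12728 genes. The lists were chosen with earlier results of these data known, so these counts are no support beside those shares. CXCL3 and CXCL5 had under 10 counts in every library outside D10 and so were tested through their D10 counts. CXCL1 had 5, 4 and 19 counts over both libraries of D0, D4 and D7, and so was tested largely through D10 too.

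As a description over the 8 libraries, which share depth and day, the log2 CPM of CCL2 and CCL7 correlated at r = 0.992, CCL2 and CCL20 at 0.930 and CCL7 and CCL20 at 0.946. CCL13 correlated with the other 3 at 0.0544 to 0.218. The genes most like CCL2 outside the list were ETS2 (r = 0.994), PAQR5 (0.992) and TPCN1 (0.990). For CCL7 they were PAQR5 (0.994), CA12 (0.992) and CXCL8 (0.988), for CCL20 CXCL3 (0.990), IL6 (0.985) and GAREM1 (0.982), and for CCL13 XRRA1 (0.966), TM7SF3 (0.964) and B4GALT1 (0.957).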

How the data were processed

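Poly(A) RNA was sequenced, and the authors deposited raw read counts per gene with RPM values beside them. Alignment was to GRCh38 (hg38) with STAR 2.5 per the labels, whereas the counting tool, annotation and strand setting were not given in the sources used here. The 8 RPM columns were not used. Groups came from the sample titles, and 1 column header had a letter O for the 0 of D0. Counts were fitted with edgeR 4.0.16 in R 4.3.3 (TMM factors 0.948 to 1.08, filterByExpr, quasi-likelihood test, all 8 libraries, Benjamini-Hochberg over 13798 genes, threshold 0.05). The fits were tested on simulated data in which only well-counted genes changed, with less spread than the real data and no experiment effect. That test therefore does not cover low-count members such as CCL13 and CCL20, nor the use of the replicate block on paired libraries. DESeq2 1.42.0 was an alternative. A replicate number marks 1 of 2 independent experiments. Same-numbered libraries deviated together (r = 0.418 to 0.722 over 6 pairings of groups), so the numbers pair them.

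All 8 members were named, other list genes when past the threshold in a comparison, receptors at 10 counts in any library, and the 3 most correlated genes of each tested member. Members and lists were chosen with earlier results of these data known. Intervals are 95% and cover counting error only, and a group was at the floor when no library passed 3 counts. With 2 libraries a group, spread is poorly known.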

Additional observations from a re-analysis of the deposited data

Results flagged for a closer look

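CCL13 counts lay above D0 on each day in experiment 1 and below D0 on each day in experiment 2, and this difference was not tested. Of the 6 count ratios to D0, only that of D10 in experiment 1 (3.35, 95% counting interval 1.68 to 7.25) had an interval without 1. After adding 2 counts, its log2 change was 0.10, 0.41 and 1.58 in experiment 1 and -0.84, -0.40 and -0.17 in experiment 2 at D4, D7 and D10. The response to medium differed between D10 and D7 for CCL7 and CCL20, tested with the replicate block, at log2 fold changes of 4.30 and 5.38. Without the block the adjusted p (edgeR) was 0.595 and 0.775, and both genes entered the test through their D10 counts.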

How the results depend on the processing

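At D10 against D0, the members called were 0 in the reported fit, 1 with DESeq2 size factors (CCL7), and 3 with DESeq2, with no filter on low counts and with the replicate block. Genes called among all numbered 40, against 390 (DESeq2), 371 (no filter), 20 (only genes with 10 or more counts in each library), 688 (replicate block), 25 (library totals in place of TMM, chosen after seeing the data) and 0 (only the compared groups). Leaving out 1 library gave 0 to 2 members and 0 to 155 genes, with 2 members (CCL2 and CCL7) and 155 genes without D10 replicate 1, 11 genes without D10 replicate 2, 0 without either D0 library, 15 without either D4 library and 14 without either D7 library. A lone remaining library was assumed to vary like the other groups. Without D10 replicate 2 the D10 log2 fold changes were 1.55 for CCL2, 5.09 for CCL7, 3.73 for CCL20 and 1.96 for CCL13.

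At D10 against D7, members called went from 0 to 3 with DESeq2 and no filter and 2 with the replicate block, and genes from 0 to 66, 77 and 44, and to 1 with library totals. Leaving out 1 library gave 0 to 1 members (CCL7, without D10 replicate 1) and 0 to 47 genes. At D4 the genes called went from 0 to 48 (DESeq2), 21 (no filter) and 38 (replicate block), and at D7 from 0 to 117, 93 and 172, with no member called. The replicate block changed no other call of a member. The cause of these differences was not tested.

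Signs turned for CCL13 without D4 replicate 2 (D4, 0.36), D0 replicate 2 (D7, -0.07), D7 replicate 1 (D7, -0.77) and D10 replicate 1 (D10, -0.48 against D0 and -0.65 against D7), and for CCL20 without D0 replicate 2 (0.40 at D4 and at D7), D4 replicate 1 (0.88) and D7 replicate 1 (0.92). Leaving out 1 library each, CCL13 ran from -1.37 to 0.36 at D4, from -0.77 to 0.72 at D7 and from -0.65 to 1.97 for D10 against D7, and CCL20 from -3.70 to 0.88 at D4 and from -3.70 to 0.92 at D7.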
